A study of Mus musculus with 8 samples.

Results

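Fatty acids enter an adipocyte, are bound in its cytosol and are activated to acyl-CoA, and 9 genes of these steps were followed in 3T3-L1 adipocytes, out of 43629 genes counted. They are Cd36, Slc27a1 and Slc27a4 for uptake, Fabp4 and Fabp5 for binding, and Acsl1, Acsl3, Acsl4 and Acsl5 for activation. The 9 genes were chosen by name for their known roles, with earlier results of these data known, and all 9 were found in the count table and passed the filter on low counts.

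CD36 is a membrane protein that binds long-chain fatty acids at the cell surface, and SLC27A1 and SLC27A4 (also called FATP1 and FATP4) are transport proteins that couple uptake to acyl-CoA formation. Inside the cell, FABP4 and FABP5 carry fatty acids through the cytosol. The long-chain acyl-CoA synthetases (ACSL) join fatty acids to coenzyme A, the step that commits them to triacylglycerol synthesis, phospholipids or oxidation, and Cd36, Fabp4 and Acsl1 are well-known targets of PPARγ, the master regulator of fat cell differentiation.

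3T3-L1 is a line of mouse fibroblast-like pre-adipocytes that becomes fat cells in culture. All 4 groups had been induced with insulin (1 μM), dexamethasone (1 μM), isobutylmethylxanthine (0.5 mM) and rosiglitazone (1 μM), a PPARγ agonist, and on day 8 they received 24 h of their treatment. There were 2 untreated cultures, 2 with A66 (2 μM), a small molecule inhibitor of the p110α subunit of PI3K, 2 with palmitate (0.5 mM), a saturated fatty acid bound to albumin (BSA) at 3 molecules per BSA, and 2 with both agents. The methods of the study speak of biological repeats, name a lower dose of A66 and DMSO as the vehicle, and give no BSA control, so palmitate and its carrier cannot be told apart here. The model is 1 cell line in culture, where fewer cells of a type and less RNA per cell cannot be told apart.

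Polyadenylated RNA was sequenced, and each library held between 42247091 and 57529803 counts on genes. Levels are given as CPM, counts per 1000000 of the TMM-scaled library, and genes are compared with each other as CPM per kilobase of exon. The 9 adipocyte markers examined summed to between 5337 and 6769 CPM per library, and the 7 pre-adipocyte markers to between 337 and 365 CPM, with Dlk1 and Dpp4 at 0 in all 8 libraries. Sums were between 5.79 and 8.79 CPM for 6 macrophage markers and between 0.882 and 1.30 CPM for 5 endothelial markers, 2 cell types that also express Cd36, Fabp4 or Fabp5. The target of A66 is a protein, so its RNA checks nothing, and of 6 genes known to respond to insulin or FOXO (Irs2, Insr, Pdk4, Srebf1, Sesn1 and Klf15) none passed edgeR's quasi-likelihood test or DESeq2 with A66 alone, and 1 had an unadjusted p under 0.05. That gene was Irs2, with a log2 fold change of 0.12 and an adjusted p of 0.318. The RNA thus gave no check of which cultures without palmitate had received A66, and every direction below holds as the libraries are labelled. Whether the labels of these 2 groups were exchanged cannot be settled here, and an exchange would turn each direction of A66 against untreated. It would also swap the baselines of palmitate against untreated and of palmitate plus A66 against A66, and change the interaction.

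Per kilobase, the binding protein Fabp4 had the highest level of the 9 genes in every group, at 3158 ± 73.1 CPM per kb (SD, n = 2) in untreated cells. Cd36 followed at 591 ± 20.8, then Acsl1 at 409 ± 13.8 and Fabp5 at 350.4 ± 18.8 CPM per kb. The other 5 genes were far lower, from Slc27a1 at 51.5 ± 2.02 through Acsl4 at 28.2 ± 0.489, Acsl3 at 22.9 ± 1.01 and Acsl5 at 18.2 ± 1.12 to Slc27a4 at 9.64 ± 0.121 CPM per kb. In untreated cells no library of a gene reached the range of the next gene in this order. With A66 the ranges of Acsl1 and Fabp5 overlapped, and in both palmitate groups Fabp5 stood above Acsl1, with no overlap. The order of the other 7 genes was the same in all 4 groups. Fabp5 levels carry an added uncertainty, since the processed pseudogene Gm6166 matches it at 98.3% over 409 bases and itself held between 2554 and 3757 counts per library, so reads may have been divided between them.

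**Figure D1:**
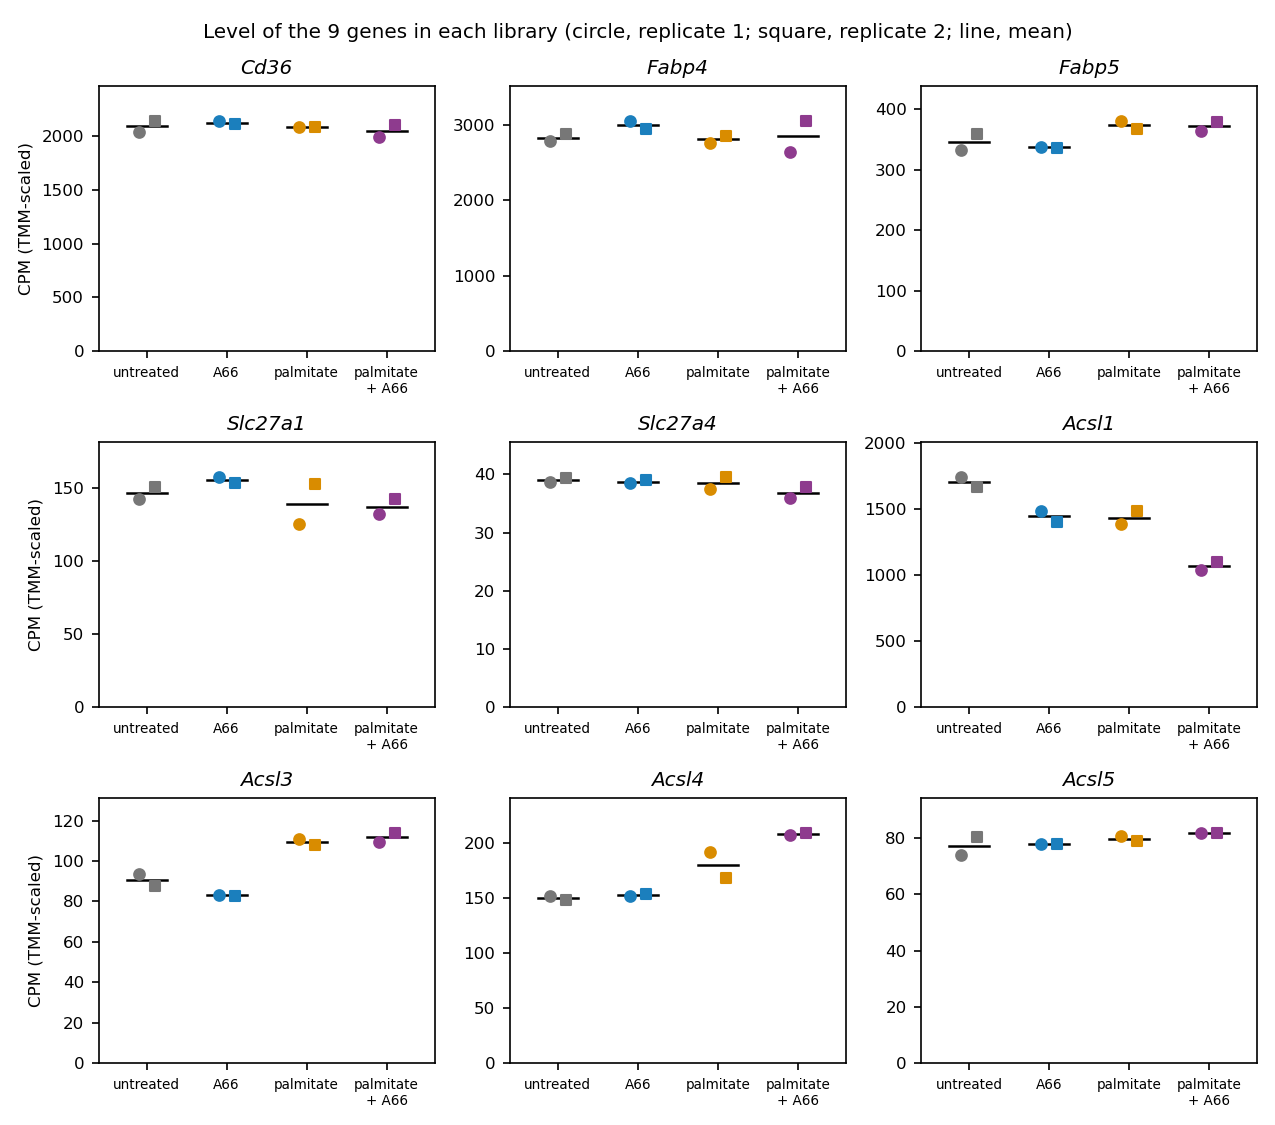
Level of each of the 9 genes in each library, in TMM-scaled CPM on a linear axis from 0, with a line at the mean of each group (2 libraries). Acsl1 steps down from 1747 and 1665 CPM in untreated cells to 1036 and 1098 CPM with palmitate plus A66, Acsl3 and Acsl4 are higher in the palmitate groups, and Cd36, Fabp4 and Slc27a4 stay near their untreated level.

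The genes that changed were activating enzymes. With A66 alone, 1 of the 9 genes passed the threshold of an adjusted p under 0.05, and it was Acsl1, which fell, where 1.84% of the 14158 genes tested were called, 1.07% higher and 0.77% lower. With palmitate, 3 of 9 were called, Acsl1 lower and Acsl3 and Acsl4 higher, beside 1.17% of 14587 genes, 0.631% higher and 0.542% lower. Adding A66 to palmitate gave 2 calls, Acsl1 lower and Acsl4 higher, beside 2.81% of genes, 0.973% higher and 1.84% lower. Giving palmitate to cells that also had A66 gave 3 calls, Acsl1 lower and Acsl3 and Acsl4 higher, beside 2.73%, 1.46% higher and 1.27% lower. Each called gene was thus a long-chain acyl-CoA synthetase, and none of the 3 uptake genes, the 2 binding proteins or Acsl5 was called in these 4 comparisons. At an unadjusted p under 0.05 the counts were 4, 4, 2 and 5 of the 9 genes, beside 12.8%, 12%, 14.4% and 14.6% of all genes, and DESeq2 called 1, 3, 2 and 4, the added gene being Fabp5. Scaling by library size only moved the counts of all genes called towards lower ones, to 126 higher and 154 lower for A66, 83 and 105 for palmitate, 107 and 350 for A66 on top of palmitate and 180 and 266 for palmitate on top of A66. The comparisons share libraries with each other, so their values are given side by side and are not independent of one another.

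**Figure D2:**
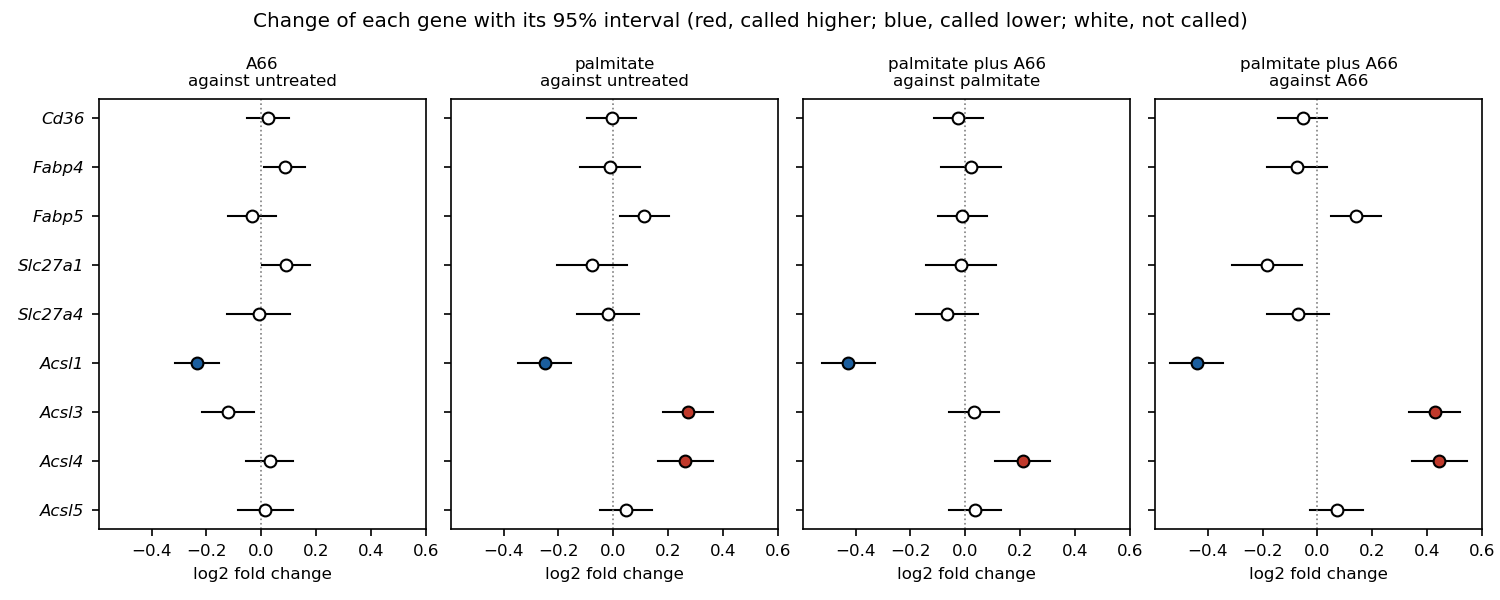
Log2 fold change of each of the 9 genes (points) with its 95% interval (bars) in the 4 comparisons, from edgeR's quasi-likelihood fit; filled points passed an adjusted p under 0.05. All 9 filled points belong to Acsl1, Acsl3 or Acsl4, from -0.44 for Acsl1 to 0.45 for Acsl4, both in palmitate plus A66 against A66.

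Acsl1 (ENSMUSG00000018796, chr8:46471037-46536051 of GRCm38, plus strand) is the main long-chain acyl-CoA synthetase of fat tissue. In untreated cells it was at 1747 and 1665 CPM, with A66 at 1489 and 1405 CPM, with palmitate at 1385 and 1483 CPM, and with both agents at 1036 and 1098 CPM. All libraries of each treated group lay below both untreated libraries, the A66 and palmitate groups overlapped each other, and the group with both agents lay below all others. Relative to the untreated mean, Acsl1 stood at 87.3% and 82.4% with A66, at 81.2% and 86.9% with palmitate, and at 60.7% and 64.3% when the agents were combined.

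In the fits, Acsl1 fell by 15.0% with A66 (log2 fold change -0.23, SE 0.039, edgeR adjusted p = 0.00158) and by 16.0% with palmitate (log2 -0.25, SE 0.047, adjusted p = 0.00551). With both agents it fell by 25.6% against palmitate alone (log2 -0.43, 95% interval -0.52 to -0.33, adjusted p = 1.97e-05) and fell by 26.3% against A66 alone (log2 -0.44, 95% interval -0.54 to -0.34, adjusted p = 2.23e-06). Both of these calls held under all alternatives tried, 13 and 14 in number. Leaving out a library leaves its group with 1, which the fit assumes to vary like the other groups. The call for A66 alone was lost without A66 replicate 2 (log2 -0.19, adjusted p = 0.0785, the highest of 13 alternatives, of which the lowest was 4.05e-10), and the call for palmitate was lost without untreated replicate 1 (log2 -0.22, adjusted p = 0.0984) and without palmitate replicate 1 (log2 -0.20, adjusted p = 0.0792), in a range from 2.34e-08 to 0.0984.

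Some adipocyte markers also fell in the combined treatment, and more of them were called against A66 than against palmitate. None of the 9 markers was called for A66 or for palmitate by edgeR or DESeq2. At an unadjusted p under 0.05 there were 5 and 3 of them, beside 12.8% and 12% of all genes. With palmitate plus A66, 3 of 9 fell against palmitate, namely Cidec, Retn and Slc2a4, beside 1.84% of all genes called lower. Against A66, 7 of 9 fell, beside 1.27% called lower, with log2 changes from -0.32 for Retn to -0.21 for Lipe. DESeq2 called 2 and 4. Of the 7 calls, 6 were lost without A66 replicate 1 and the same 6 without palmitate plus A66 replicate 1, leaving Retn, and 2 of the 3 calls against palmitate, Cidec and Slc2a4, were lost without palmitate replicate 2 and without palmitate plus A66 replicate 1. The summed level of the 9 markers was 98.4% and 101.6% of its untreated mean in untreated cells, 107.5% and 100.6% after A66, 87.7% and 98.4% with palmitate, and 84.8% and 90.4% with both agents.

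Per 1000 CPM of these markers, Acsl1 was at 282 and 260.3 CPM in untreated cells, 220.0 and 222 CPM with A66, 251 and 239 CPM with palmitate, and 194 and 193 CPM with both. The 4 groups did not overlap on this scale, which was not tested. Of 3 macrophage markers tested, Cd68 rose with palmitate plus A66 against A66, by 0.91 on the log2 scale (adjusted p = 0.00140, and 0.0678 without A66 replicate 1). In that comparison Lyz2 was at -0.32 (adjusted p = 0.422) and Csf1r at 0.30 (adjusted p = 0.886), and the defining macrophage markers Ptprc, Adgre1 and Itgam were at or near 0 in all libraries. No pre-adipocyte or endothelial marker was called by edgeR in the 4 comparisons. Up to 2 of 5 and 0 of 2 had an unadjusted p under 0.05 in any of them, beside 12% to 14.6% of all genes. DESeq2 called 1 pre-adipocyte marker, for palmitate plus A66 against palmitate. The part of these markers in the change of Acsl1 was not tested.

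**Figure D3:**
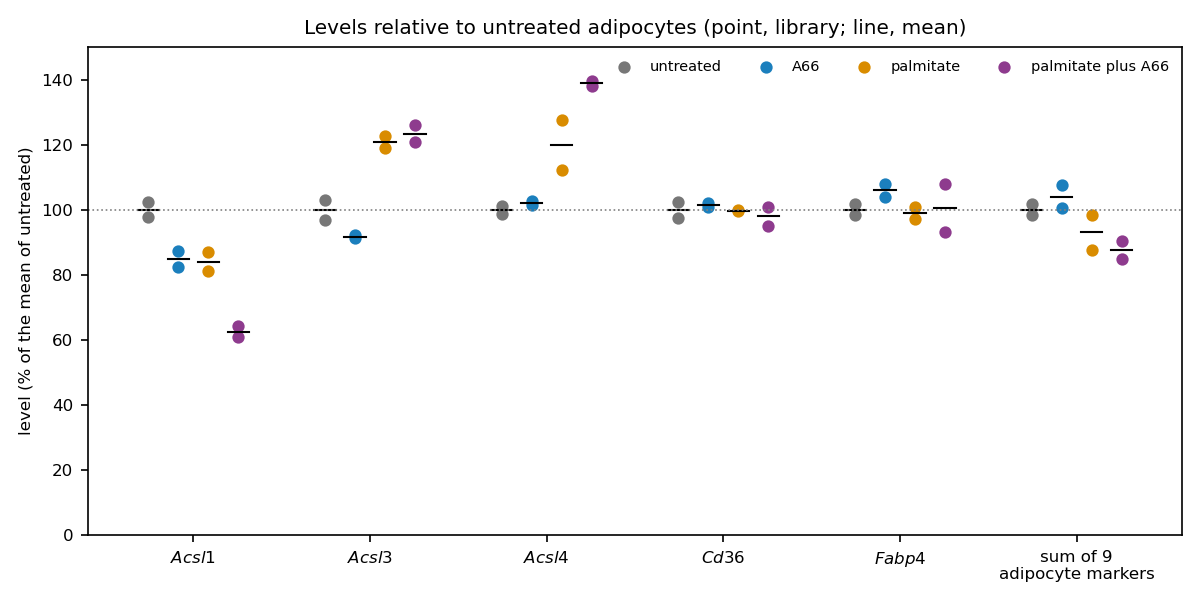
Level of 3 acyl-CoA synthetase genes, Cd36, Fabp4 and the sum of 9 adipocyte markers in each library, as a percentage of the mean of the untreated libraries, with a line at each group's mean. With palmitate plus A66, Acsl1 is at 60.7% and 64.3%, below the marker sum at 84.8% and 90.4%, while Acsl4 is at 138% and 139.6%.

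Acsl3 (chr1:78657825-78707743, plus strand), an enzyme of the endoplasmic reticulum and lipid droplet surface, was higher in every library with palmitate than in any without it. It was at 93.4 and 87.7 CPM in untreated cells, 83.4 and 82.7 CPM with A66, 111 and 108 CPM with palmitate, and 109 and 114 CPM with both. It rose by 20.8% with palmitate (log2 0.27, SE 0.044, adjusted p = 0.00124) and by 34.5% with palmitate in the presence of A66 (log2 0.43, SE 0.045, adjusted p = 1.83e-06), and both calls held under the 13 and 14 alternatives. A66 gave a log2 change of -0.12 alone (95% interval -0.21 to -0.027, adjusted p = 0.225) and 0.031 on top of palmitate (95% interval -0.060 to 0.12, adjusted p = 0.820). Without untreated replicate 2 the first of these passed the threshold (adjusted p = 0.0410, in a range from 0.0410 to 0.663). Utp14b lies on the same strand within the same locus and held 733 to 1257 counts per library, against 3880 to 6417 for Acsl3, and its transcript matches that of Acsl3 at 98.2% over 221 bases, so shared reads may have been lost or assigned to either.

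Acsl4 (chrX:142317993-142390535, minus strand), which prefers arachidonate and other polyunsaturated fatty acids, was highest where both agents were present. Its level was 152 and 148 CPM in untreated cells, 152 and 154 CPM with A66, 192 and 169 CPM with palmitate, and 207 and 209.6 CPM with both. The 2 groups without palmitate differed little, both palmitate groups lay above them, and the group with both agents lay above palmitate alone. Acsl4 rose by 20.01% with palmitate (log2 0.26, SE 0.049, adjusted p = 0.00525), by 15.7% when A66 was added to palmitate (log2 0.21, SE 0.048, adjusted p = 0.0159) and by 36.2% with palmitate in the presence of A66 (log2 0.45, SE 0.049, adjusted p = 3.28e-06).

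The last of these calls for Acsl4 held under all 14 alternatives. The palmitate call was lost without palmitate replicate 1, at a log2 change of 0.17 (adjusted p = 0.183, in a range from 3.44e-07). The call for A66 on top of palmitate was lost without palmitate replicate 2 (log2 0.12, adjusted p = 0.320) and, with the change at 0.22 and 0.20, without either replicate of the combined treatment (adjusted p = 0.0719 and 0.114), in a range from 2.84e-04 to 0.320. A66 alone gave a log2 change of 0.031 (95% interval -0.054 to 0.12).

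Acsl5 (chr19:55251938-55297720, plus strand), a mitochondrial and endoplasmic reticulum enzyme, was at 73.7 and 80.5 CPM in untreated cells, 77.8 CPM in both A66 libraries, 80.7 and 78.8 CPM with palmitate and 81.6 and 81.8 CPM with both. The untreated libraries spanned both A66 libraries. Log2 changes were between 0.014 and 0.071 in the 4 comparisons, the adjusted p was 0.527 or more, and the 95% intervals reached at most 0.17. Zdhhc6 overlaps Acsl5 on the opposite strand, with 2433 to 3386 counts per library against 3131 to 4666 for Acsl5, and how strand was handled in the counting is not given in the sources used here.

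The make-up of the ACSL transcripts shifted with these changes. Per kilobase, Acsl1 gave 85.8% and 85.3% of the summed level of the 4 genes in untreated cells, 84.0% and 83.2% after A66, 80.0% and 82.1% with palmitate, and 74.3% and 75.0% with both. Acsl4 gave 5.84% and 5.95% in untreated cells and 11.6% and 11.2% with both agents, and Acsl3 gave 4.84% and 4.74% against 8.28% and 8.23%. The sum of the 4 genes was 488 and 468 CPM per kb in untreated cells, 425 and 405 after A66, 415 and 433 with palmitate, and 334 and 351 with both. These shares follow from the levels above and were not tested.

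**Figure D4:**
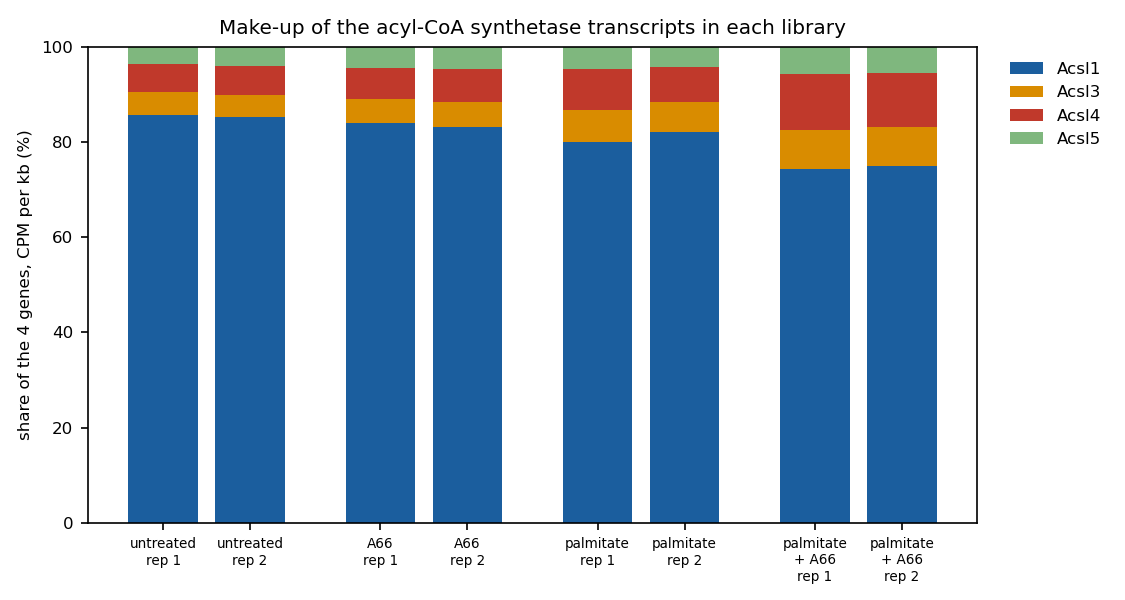
Share of Acsl1, Acsl3, Acsl4 and Acsl5 in their summed level (CPM per kb) in each library, as stacked bars that add up to 100%. The share of Acsl1 goes from 85.8% and 85.3% in untreated cells to 74.3% and 75.0% with palmitate plus A66.

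Promoter windows of the called ACSL genes are shown because these genes changed in opposite directions, with Cd36, which was not called, for comparison. Each is the 250 bases before a RefSeq start site on GRCm38.p6, 5′ to 3′ in the direction of the gene, and capitals mark a GC box (GGGCGG on either strand). RefSeq gives Acsl1 a pair of start sites, at which the windows are chr8:46470787-46471036 and chr8:46490716-46490965 on the plus strand. The other windows are chr1:78657575-78657824 for Acsl3 on the plus strand, and chrX:142390536-142390785 for Acsl4 and chr5:17835897-17836146 for Cd36 on the minus strand. The Cd36 window and the second Acsl1 window lie inside their annotated genes, while the others adjoin the 5′ end of theirs.
Acsl1, start site 1: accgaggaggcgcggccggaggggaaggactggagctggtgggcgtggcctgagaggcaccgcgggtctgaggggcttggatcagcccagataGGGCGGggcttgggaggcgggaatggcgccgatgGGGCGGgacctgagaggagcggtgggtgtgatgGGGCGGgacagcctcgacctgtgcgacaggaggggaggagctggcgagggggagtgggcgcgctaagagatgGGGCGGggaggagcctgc
Acsl1, start site 2: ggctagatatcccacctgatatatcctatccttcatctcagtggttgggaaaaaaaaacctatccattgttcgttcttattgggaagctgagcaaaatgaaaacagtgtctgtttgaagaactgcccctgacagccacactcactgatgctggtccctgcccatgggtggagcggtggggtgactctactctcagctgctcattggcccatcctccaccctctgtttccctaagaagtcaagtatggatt
Acsl3: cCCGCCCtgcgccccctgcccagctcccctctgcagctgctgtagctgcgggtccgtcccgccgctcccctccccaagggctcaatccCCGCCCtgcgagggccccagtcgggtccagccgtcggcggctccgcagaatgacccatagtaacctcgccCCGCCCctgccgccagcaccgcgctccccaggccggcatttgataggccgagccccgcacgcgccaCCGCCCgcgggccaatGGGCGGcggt
Acsl4: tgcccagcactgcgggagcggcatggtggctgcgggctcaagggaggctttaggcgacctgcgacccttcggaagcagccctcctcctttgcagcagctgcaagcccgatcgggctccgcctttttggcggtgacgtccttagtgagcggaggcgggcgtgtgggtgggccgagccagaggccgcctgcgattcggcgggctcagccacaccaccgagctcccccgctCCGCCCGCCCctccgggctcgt
Cd36: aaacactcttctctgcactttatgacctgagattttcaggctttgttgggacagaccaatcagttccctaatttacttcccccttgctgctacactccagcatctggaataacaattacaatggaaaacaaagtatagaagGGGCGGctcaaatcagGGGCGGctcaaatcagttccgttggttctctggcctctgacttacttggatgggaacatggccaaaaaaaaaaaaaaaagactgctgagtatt

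The GC box was found 4 times in the first Acsl1 window and 0 times in the second, 5 times in the Acsl3 window, and 2 times each in those of Acsl4, where the matches overlap, and Cd36. Of 32851 RefSeq windows of this length, 32.7% held it. The first Acsl1 window had a GC content of 72.0% and the second 48.4%, the Acsl3 window 75.6%, the Acsl4 window 70.8% and the Cd36 window 43.2%. Of the other motifs searched on both strands, the nuclear receptor half-site AGGTCA was found in the Cd36 window (14% of all windows hold it), the CRE half-site TGACG in the Acsl4 window (17.8%), and CCAAT in the second Acsl1 window, the Acsl3 window and the Cd36 window (33.8%). The DR1 element, this half-site and its direct repeat with 1 base between them (0.0335% of windows), the forkhead motif GTAAACA (3.17%) and the E-box CACGTG (6.02%) were not found in these 5 windows. A match is a description of letters and not of a bound site.

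None of the 3 uptake genes was called. Cd36 (chr5:17781690-17888801, minus strand) was at 2037 and 2141 CPM in untreated cells, 2135 and 2109 CPM with A66, 2086 and 2078 CPM with palmitate, and 1987 and 2104 CPM with both. Its log2 changes were 0.025, -0.0051, -0.025 and -0.053 for A66, palmitate, A66 on top of palmitate and palmitate on top of A66, and their 95% intervals together ran from -0.14 to 0.10. A change of Cd36 beyond about 10% in either direction therefore lies outside the interval of each comparison.

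Slc27a1 (chr8:71568882-71587302, plus strand) varied more between replicates, at 142 and 150.4 CPM in untreated cells, 158 and 154 CPM with A66, 125 and 152 CPM with palmitate, and 132 and 142 CPM with both. The A66 libraries lay above the untreated ones and above those with both agents. Its log2 change was -0.18 for palmitate on top of A66 (95% interval -0.31 to -0.055, unadjusted p = 0.00720, adjusted p = 0.130), and 4 of 14 alternatives called it lower, with adjusted p from 0.00303 to 0.588. It was also called lower with palmitate when palmitate replicate 2 was left out (log2 -0.22, adjusted p = 0.0368, in a range from 0.0368 to 0.894). Slc27a4 (chr2:29802634-29817522, plus strand) was between 35.9 and 39.6 CPM in all 8 libraries, and its log2 changes were between -0.071 and -0.0098.

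Both binding proteins also stayed below the threshold. Fabp4 (chr3:10204088-10208576, minus strand) was at 2783 and 2876 CPM in untreated cells, 3050.5 and 2943 CPM with A66, 2753 and 2856 CPM with palmitate, and 2639 and 3054 CPM with both. The libraries with both agents differed from each other more than any other group and spanned all 6 other libraries. The log2 change of Fabp4 was 0.086 for A66 (95% interval 0.011 to 0.16, adjusted p = 0.294) and between -0.074 and 0.021 in the other 3 comparisons.

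Fabp5 (chr3:10012548-10016607, plus strand) was at 333 and 359 CPM in untreated cells, 338 and 337 CPM with A66, 381 and 367 CPM with palmitate, and 365 and 379 CPM with both. All 4 libraries with palmitate lay above all 4 without it. The log2 change was 0.11 for palmitate (95% interval 0.024 to 0.20, adjusted p = 0.257) and 0.14 for palmitate on top of A66 (95% interval 0.051 to 0.23, adjusted p = 0.0892). The second of these was called under 5 of 14 alternatives, DESeq2 among them, with adjusted p from 0.0220 to 0.421.

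Libraries that did not overlap between groups were also counted. For A66 against untreated, 5 of the 9 genes had no overlap, beside 42.7% of all genes tested, and for palmitate 4 of 9 beside 40.5%. For A66 on top of palmitate the count was 3 of 9 beside 44.3%, and for palmitate on top of A66 it was 8 of 9 beside 46.6%, with Fabp4 as the exception. The median absolute log2 change of the 9 genes was 0.034, 0.077, 0.031 and 0.14 in these comparisons, beside 0.076, 0.079, 0.085 and 0.085 over all genes tested.

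Whether A66 and palmitate together differ from the sum of their separate changes was tested as an interaction. None of the 9 genes was called by edgeR or DESeq2, and 3 had an unadjusted p under 0.05, beside 7.92% of all genes. These were Acsl1 at -0.19 on the log2 scale (95% interval -0.33 to -0.052, unadjusted p = 0.00902, adjusted p = 0.477), Acsl4 at 0.18 (0.040 to 0.33, unadjusted p = 0.0147, adjusted p = 0.501) and Acsl3 at 0.15 (0.024 to 0.28, unadjusted p = 0.0225, adjusted p = 0.558). Of all genes, 1 (0.00686%) was called, Hmox1, named after its value was seen. Acsl1 passed the threshold in 1 of 16 alternatives, the one with no filter on low counts (adjusted p = 0.0398, in a range from 0.0398 to 0.904).

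Other genes of the pathway were taken from 5 lists with 85 genes in all, of which 61 were tested. With A66, 0 of the 61 were called higher and 3 lower, with palmitate 3 higher and 3 lower, with A66 on top of palmitate 0 higher and 3 lower, and with palmitate on top of A66 5 higher and 6 lower, where 1.84%, 1.17%, 2.81% and 2.73% of all genes were called. The largest called rise was that of Acss2 and the largest called fall that of Elovl6, at 0.71 and -0.32 on the log2 scale. The median log2 change of the 61 genes was -0.026, -0.010, -0.025 and -0.020, beside -0.0011, 0.00053, -0.00079 and 0.00044 over all genes tested.

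Acss2, which activates acetate for lipid synthesis, was at 56.2 and 61.2 CPM in untreated cells, 51.8 and 48.7 CPM with A66, 91.1 and 85.0 CPM with palmitate, and 85.8 and 78.9 CPM with both. The palmitate groups lay above the others, both libraries with A66 alone lay below the untreated ones, and the groups with palmitate overlapped each other. It rose by 0.58 on the log2 scale with palmitate (adjusted p = 1.01e-06) and by 0.71 with palmitate on top of A66 (adjusted p = 2.12e-08), calls that held under the 13 and 14 alternatives, and fell by 0.22 in the libraries labelled A66 against those labelled untreated (adjusted p = 0.0334), a call that was lost under 4 of 13 alternatives, DESeq2 among them (adjusted p up to 0.415), and whose direction rests on these labels. Of the other 7 synthetases tested besides the ACSL genes of the core set, Aacs was called higher, with palmitate on top of A66 (log2 0.18, adjusted p = 0.0279).

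The 14 users of acyl-CoA gave 2 calls with A66 and 4 with palmitate, beside 1.84% and 1.17% of all genes. They gave 2 calls for A66 on top of palmitate and 5 for palmitate on top of A66, beside 2.81% and 2.73%. Among the genes called were the stearoyl-CoA desaturases Scd1 and Scd2. Scd2 was at 2006 and 1962 CPM in untreated cells, 1761 and 1739 CPM with A66, 2419.7 and 2383 CPM with palmitate, and 2226 and 2275 CPM with both. The 4 groups of Scd2 did not overlap. It rose by 0.28 on the log2 scale with palmitate (adjusted p = 3.42e-04) and by 0.36 with palmitate on top of A66 (adjusted p = 4.28e-06), and fell by 0.18 with A66 (adjusted p = 0.00703), while Scd1 rose by 0.30 (adjusted p = 0.00866) and 0.44 (adjusted p = 5.48e-05) in the palmitate comparisons. DESeq2 did not call Scd1 for palmitate alone (adjusted p = 0.0754, the highest of its 13 alternatives).

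Elovl6, which extends palmitoyl-CoA, was at 42.7 and 42.8 CPM in untreated cells, 34.1 and 34.4 CPM with A66, 48.6 and 44.3 CPM with palmitate, and 39.4 and 37.4 CPM with both. Within each background the libraries with A66 were the lower ones, and the gene fell by 0.32 with A66 alone (adjusted p = 0.00245) and by 0.27 with A66 on top of palmitate (adjusted p = 0.00654). Gpam, the mitochondrial acyltransferase that opens glycerolipid synthesis, fell with palmitate (log2 -0.19, adjusted p = 0.0320), and Sptlc1, a subunit of serine palmitoyltransferase, fell with palmitate (log2 -0.23, adjusted p = 0.0273) and with palmitate on top of A66 (log2 -0.25, adjusted p = 0.00686). The acyltransferase Gpat3 fell with A66 on top of palmitate (log2 -0.19, adjusted p = 0.0165) and with palmitate on top of A66 (log2 -0.20, adjusted p = 0.00995), and Dgat2, which makes triacylglycerol, fell with palmitate on top of A66 (log2 -0.25, adjusted p = 0.00998).

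Of 15 other carriers and binding proteins, Lpl, the lipase that frees fatty acids from lipoproteins, fell with palmitate (log2 -0.19, adjusted p = 0.0331) and with palmitate on top of A66 (log2 -0.17, adjusted p = 0.0397). The caveolar genes Cav1 and Cavin1 fell in 1 comparison each, Cav1 with A66 on top of palmitate (log2 -0.22, adjusted p = 0.00362) and Cavin1 with palmitate on top of A66 (log2 -0.18, adjusted p = 0.0214). No other gene of this list was called by edgeR in the 4 comparisons. DESeq2 called 2 genes of the list for A66 on top of palmitate and 4 for palmitate on top of A66, where edgeR called 1 and 2. Of the 23 called changes of other pathway genes, 7 held under every alternative, namely those of Elovl6 with A66, of Acss2 and Scd2 with palmitate, and of Acss2, Scd1, Scd2 and Rxra with palmitate on top of A66. The other 16 were each lost with at least 1 library left out, and those of Gpam and Sptlc1 for palmitate were lost without any of its 4 libraries, with log2 changes from -0.20 to -0.17 and from -0.25 to -0.20 and adjusted p up to 0.120 and 0.129.

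The 10 acyl-CoA thioesterases, which reverse activation, gave 0 calls in any of the comparisons by edgeR or DESeq2, the interaction included, with 1 or 2 genes at an unadjusted p under 0.05 in each, beside 12.8%, 12%, 14.4%, 14.6% and, for the interaction, 7.92% of all genes. Of 14 PPAR receptors and fatty acid responsive targets, 0 were called by edgeR with A66, with palmitate or with A66 on top of palmitate, with 2, 3 and 3 genes at an unadjusted p under 0.05, against the same shares of all genes, and 0, 1 and 2 called by DESeq2. With palmitate on top of A66, the lipid droplet protein Plin2 rose (log2 0.21, adjusted p = 0.00737) and the nuclear receptor Rxra fell. Rxra was at 243 and 239 CPM with A66 and at 196 and 203 CPM with both (log2 -0.27, adjusted p = 8.32e-04).

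**Figure D5:**
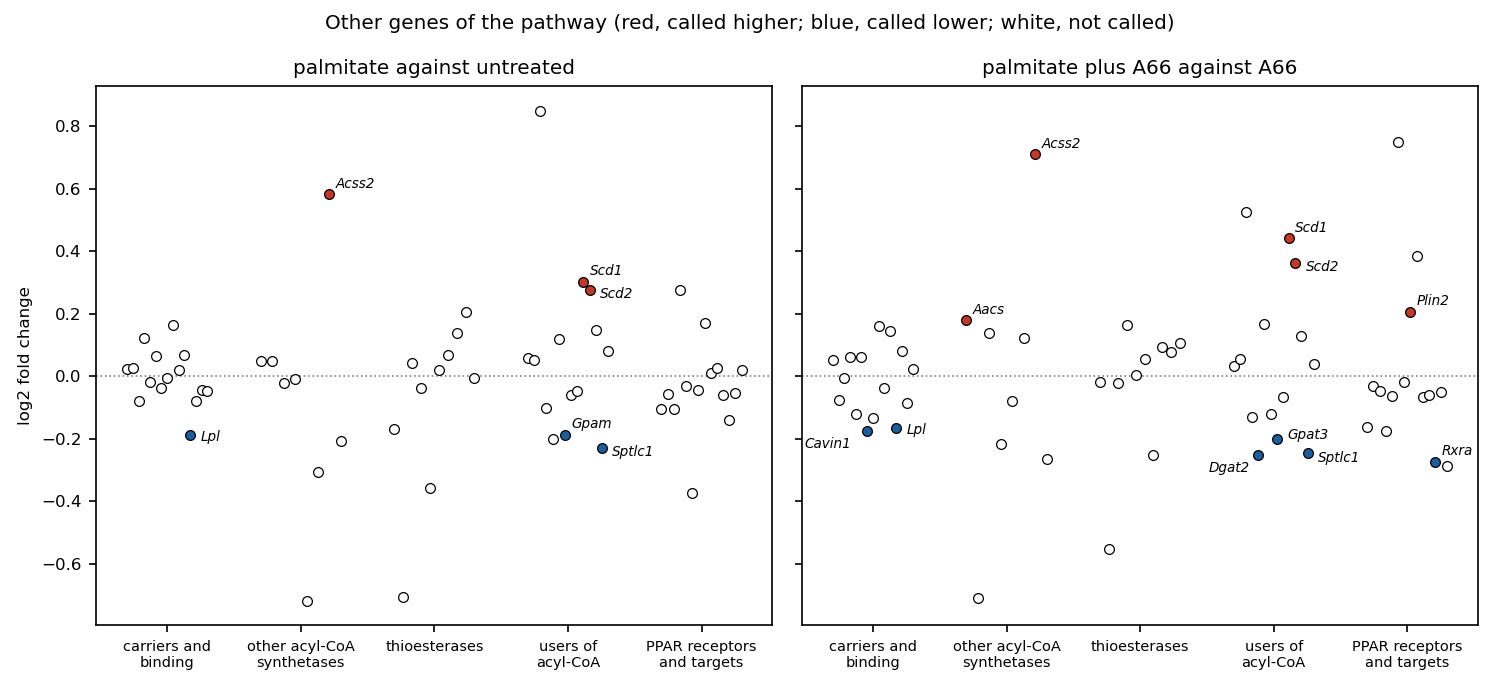
Log2 fold change of the 61 other genes of the pathway that were tested, 1 point per gene in 5 lists, for palmitate against untreated and for palmitate plus A66 against A66. Filled and named points passed an adjusted p under 0.05, with Acss2 the highest of them at 0.58 and 0.71.

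Genes whose levels tracked those of 3 of the members across the 8 libraries were looked up among all genes tested, as a description. The closest to Acsl1 were Jade2, Itga6 and A530016L24Rik, each with a Pearson r of 0.99 between log2 CPM values. For Cd36 they were Cbx8, Mrps36 and Lsm7, each at 0.95, and for Fabp4 they were Gm38227 at 0.98 and Atg101 and Timeless at 0.95. Gm38227 had a mean level of 0.185 CPM. The 8 points are the same libraries for all genes and carry the group differences as well as depth and scaling, and the highest of many correlations is high by selection.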

How the data were processed

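Stranded, oligo dT selected RNA libraries were sequenced as paired ends, 2 in each of 4 groups, and groups, doses and replicate numbers were taken from the sample labels. The reads had been mapped to GRCm38 with TopHat 2.0.11, and the authors deposited an HTSeq table of raw counts for Ensembl genes. The strand setting and annotation release are not given in the sources used here. The table also holds the authors' DESeq2 comparison (a mean of normalised counts, log2 fold changes with their standard errors, a Wald statistic, p-values and adjusted p-values), which was not used.

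Of 43629 genes, 42462 matched a symbol in GENCODE M21, which gave coordinates and exon lengths. Tests were run in R 4.3.3 with edgeR 4.0.16 (TMM, filterByExpr with a minimum count of 10, quasi-likelihood test, Benjamini-Hochberg adjustment over all genes tested) and tested on simulated data. A66 was compared with untreated cells on their 4 libraries, and the other comparisons and the interaction used all 8. The 9 genes held between 1644 and 159234 counts per library, and replicates differed beyond counting noise (chi-square per gene 6.15 to 8.99), with a biological coefficient of variation of 0.0377 in the 4 libraries and 0.0406 in all 8. Intervals are at 95%.

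The alternatives were RLE factors, scaling by library size only, DESeq2 1.42.0, no filter, a minimum of 10 counts in each library, a fit on more or fewer libraries, a replicate block, a length correction (loess span 0.4), and leaving out each library. The rule for named genes took all 9 members, and of the pathway lists up to 3 called genes with the largest rise and 3 with the largest fall per comparison, with the 3 closest genes for Cd36, Fabp4 and Acsl1. Aacs, Plin2, Gpat3 (palmitate on top of A66), Cavin1, Lpl (same comparison), Hmox1, the called markers and Klf15 were named after their values were seen. Members and lists were chosen with earlier results of these data known. Near-identical copies were found with blastn 2.17.0+ (at least 90% identity over 200 bases). Promoter windows come from RefSeq on GRCm38.p6, where 7 of 9 members had a start site.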

Additional observations from a re-analysis of the deposited data

How the results depend on the processing

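With 2 libraries per group, leaving out a library leaves a group with 1, assumed to vary like the others, and several calls were then lost, some with their log2 change little moved, while the 3 ACSL calls for palmitate plus A66 against A66, the Acsl3 call for palmitate and the Acsl1 call for A66 on top of palmitate held under all alternatives tried. The 9 genes had at least 1644 counts in every library, and the effect of depth on their calls was not tested. Directions turned only for changes that were not called. The cause of the shifts below was not tested. The number of genes called rose with no filter on low counts, from 261 to 459 for A66, from 171 to 396 for palmitate, from 410 to 652 for A66 on top of palmitate, from 398 to 664 for palmitate on top of A66 and from 1 to 91 for the interaction. The interaction had 2 genes called when scaled by library size only, 21 with DESeq2 and 3 with the replicate block. Palmitate plus A66 against A66 had 689 genes called on its own 4 libraries. In that comparison 2 members rather than 1 were called lower with no filter, with the replicate block and length correction together, and on its 4 libraries, the added one being Slc27a1, and the interaction had 1 member called lower with no filter, Acsl1. Scaling by library size only changed the split of genes called from 152 higher and 109 lower to 126 and 154 for A66, from 92 and 79 to 83 and 105 for palmitate, from 142 and 268 to 107 and 350 for A66 on top of palmitate, and from 213 and 185 to 180 and 266 for palmitate on top of A66.

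The replicate numbers shared by the groups were not taken as a pairing, since correlations of deviations between same-numbered libraries ran from -0.20 to 0.22 over 5886 genes. With the replicate block the genes called were 282, 195, 448, 438 and 3 for A66, palmitate, A66 on top of palmitate, palmitate on top of A66 and the interaction, and no member gained or lost a call in it. A crossed block for palmitate plus A66 against A66, added after seeing the data, called 503 genes and 2 members lower.

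With each library left out in turn, the genes called ranged from 98 to 635 for A66, 71 to 245 for palmitate, 147 to 426 for A66 on top of palmitate, 107 to 346 for palmitate on top of A66 and 0 to 10 for the interaction. Members called lower ranged from 0 to 2 for A66 and from 0 to 2 for palmitate, and members called higher from 1 to 2 for palmitate and from 0 to 1 for A66 on top of palmitate.

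Log2 changes that turned direction were all within these limits. For A66 they were Acsl5, at -0.0017 when scaled by library size only and from -0.046 to 0.083 with a library left out, Slc27a4, at 0.0018 with the length correction, 0.0025 with block and length correction and from -0.023 to 0.0065 with a library left out, Cd36 (-0.011 to 0.065) and Fabp5 (-0.088 to 0.025). For palmitate they were Cd36, at 0.0030 with no filter, 0.0016 with the length correction, 0.0020 with block and length correction and from -0.041 to 0.031 with a library left out, Acsl5 (-0.013 to 0.11), Fabp4 (-0.037 to 0.013), Slc27a1 (-0.22 to 0.057) and Slc27a4 (-0.054 to 0.020). For A66 on top of palmitate they were Fabp5, at 0.0048 with the length correction, 0.0045 with block and length correction and from -0.038 to 0.017 with a library left out, Fabp4 (-0.088 to 0.12), Slc27a1 (-0.15 to 0.13), Cd36 (-0.068 to 0.016) and Acsl3 (-0.00070 to 0.061). For palmitate on top of A66 it was Fabp4 (-0.18 to 0.028), and for the interaction Fabp4, at 0.00039 with the length correction and from -0.17 to 0.038 with a library left out, Fabp5 (-0.030 to 0.080), Acsl5 (-0.043 to 0.084) and Slc27a1 (-0.24 to 0.039).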

Other observations

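Of the 6 genes known to respond to insulin or FOXO, Klf15 was called where both agents were present. It fell by 0.19 on the log2 scale with palmitate plus A66 against palmitate (adjusted p = 0.0278) and by 0.26 against A66 (adjusted p = 0.00234). The first of these calls was lost under 4 of 13 alternatives, each with 1 library left out, at log2 changes from -0.21 to -0.18 and adjusted p up to 0.187, and the second held under all 14.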
